A study of Penicillium oxalicum with 6 samples.

Results

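The genes described here are 66 of the 9834 gene IDs measured in the filamentous fungus Penicillium oxalicum, and they share a higher transcript level in a POX06509 deletion strain while being spread over most of the ID numbering. They were chosen by their measured values: a mean of at least 3 FPKM over the 3 MuPOX06509 libraries, at least 4 times the mean over the 3 Ku70 libraries, and a lowest MuPOX06509 value above the highest Ku70 value. FPKM is the fragment count of a gene scaled to gene length and library size. IDs in 6 ranges of the numbering (POX01150 to POX01200, POX01675 to POX01715, POX05835 to POX05885, POX09330 to POX09370, POX09450 to POX09490, and POX09580 onward, 480 IDs in all) were left out. The 100 genes of highest mean Ku70 FPKM among the rest were left out as well, which removed none of the genes that met the other conditions. Without the ID ranges the same values would have picked 132 genes, of which 66 lay inside the ranges. Since the difference between the strains chose these genes, their levels and fold differences are given as a description, with no test.

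P. oxalicum grows on dead plant material and secretes cellulases and xylanases, the enzymes that break down cellulose and the hemicellulose xylan. Transcription factors are proteins that bind DNA and raise or lower the transcription of other genes. They control these enzymes, and deleting a factor is a usual way to find the genes that depend on it. What POX06509 encodes is not given here. In filamentous fungi, genes of a shared secondary metabolite pathway often lie side by side on a chromosome, whereas most other genes of a shared function are dispersed. The sources used here name no function for the 66 genes, and none of the 9834 IDs equals a name in the RefSeq table of assembly ASM172317v3, so the genes are called by their IDs.

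RNA came from mycelium of strain MuPOX06509 (3 libraries, F, S and T), labelled as a mutant of POX06509, and of strain Ku70 (3 libraries, F, S and T), labelled as a Ku70 mutant. The series title speaks of a deletion of POX06509. Ku70 is a DNA repair protein that joins broken ends, and its loss makes targeted deletion in fungi more efficient. The labels do not say whether MuPOX06509 was made in the Ku70 strain, although the growth protocol given for every library names MuKu70 spores. About 1.0 g of hyphae was moved to 100 mL of medium with 1% Avicel, a microcrystalline cellulose, and kept there for 24 h at 28 °C with shaking at 180 rpm. The growth protocol also gives 6 days on PDA (potato dextrose agar) for all libraries. Whether each library had its own culture is not stated in the labels. The deletion is represented by a single strain, so its effect and any other strain difference cannot be told apart.

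Total expected counts were 14605326 to 15081626 in MuPOX06509 libraries and 15022017 to 15219424 in Ku70 libraries. The deleted gene POX06509 had 0, 0 and 1 counts in MuPOX06509 libraries, against 1405, 2580 and 1851 counts in Ku70 libraries, as the labels say. Within a strain no library pair was as alike as repeat counts of 1 library would be (chi-square over degrees of freedom 14.5 to 76.9), and all 6 were kept as replicates.

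The 66 genes were mostly of low abundance in the Ku70 strain and of low to middle abundance in the deletion strain. In bulk RNA, less RNA per hypha and fewer hyphae that express a gene cannot be told apart. The median of their mean FPKM was 8.96 in MuPOX06509 and 1.26 in Ku70, where the medians over all 8336 tested genes were 25.4 and 25.7. In Ku70, 28 of the 66 genes averaged under 1 FPKM and 53 averaged under 5 FPKM. In MuPOX06509, 17 averaged 3 to under 5 FPKM, 19 averaged 5 to under 10, 20 averaged 10 to under 50 and 10 averaged 50 or more. The median over the 66 genes was 9.41, 9.51 and 7.39 FPKM in MuPOX06509 libraries F, S and T, against 1.31, 1.25 and 1.26 FPKM in the same order in Ku70. The ratio of mean FPKM, MuPOX06509 over Ku70, had a median of 6.81 and a span of 4.20 to 84.0. It was under 5 for 18 genes, 5 to under 8 for 22, 8 to under 16 for 15 and at least 16 for 11. The rule demanded a gap between the groups, and in 63 of the 66 genes the lowest MuPOX06509 value was at least 2 times the highest Ku70 value.

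Expected counts were tested over the whole table with edgeR's quasi-likelihood test. Of the 66 genes, 64 passed its filter on low counts and all 64 were called higher in MuPOX06509, where 5.33% of all tested genes were called higher and 12.6% in either direction at an adjusted p under 0.05. Non-overlapping groups with MuPOX06509 above Ku70 were found for 14.8% of all tested genes. Both properties belong to the rule or to the contrast it used, so nothing is read from the members' counts. The other 2 genes, POX00242 and POX09557, were not tested. Their implied effective lengths, the lengths at which count and FPKM match, were 59.0 and 141 bases, so that few reads fell on them. POX00242 had 3, 4 and 2 counts in MuPOX06509 libraries, against 1, 0 and 1 counts in Ku70 libraries, a ratio of scaled counts of 4.58. Counting error alone gave it an exact 95% interval of 0.949 to 43.6. That interval includes a ratio of 1.

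**Figure D1:**
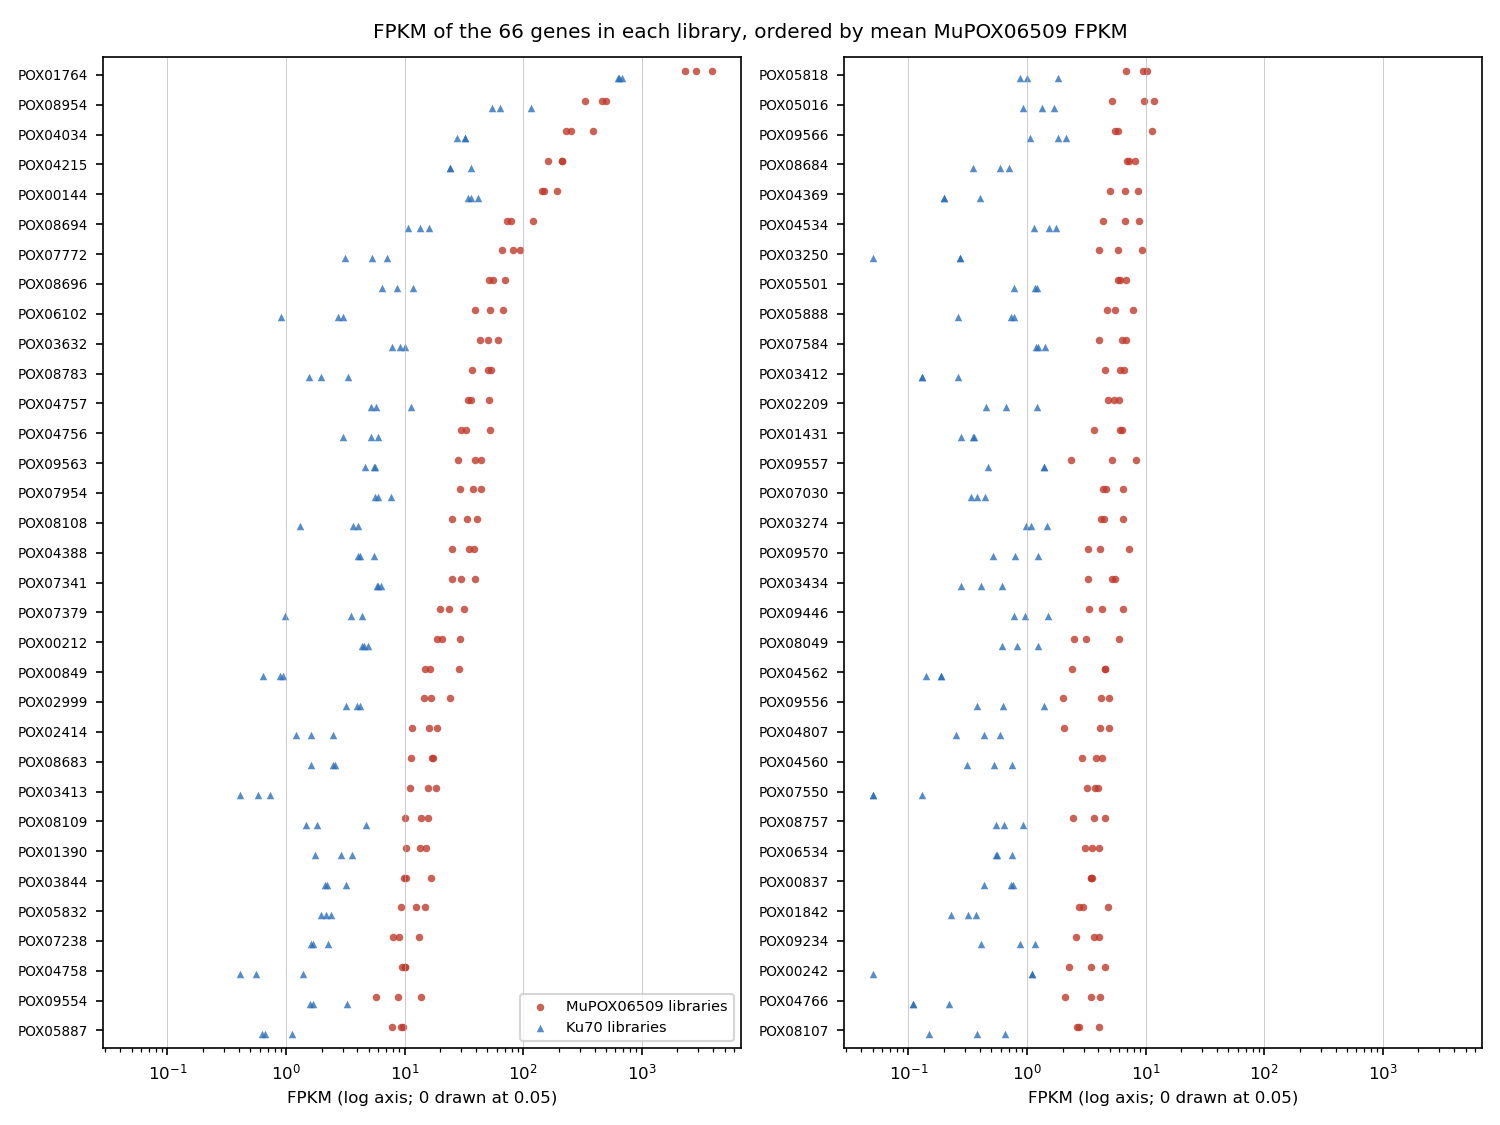
Each row is a gene, ordered by its mean MuPOX06509 FPKM from the top of the left panel to the foot of the right panel, with FPKM on a log axis, 3 MuPOX06509 libraries as red circles and 3 Ku70 libraries as blue triangles (values of 0 drawn at 0.05). No gene has overlapping groups, as the rule demands, and the mean MuPOX06509 levels run from 3032 FPKM for POX01764 to 3.15 FPKM for POX08107.

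POX01764 was by far the most abundant of the 66 genes. It had 2883, 3914 and 2299 FPKM in MuPOX06509 libraries F, S and T, against 642, 686 and 635 FPKM in Ku70 libraries F, S and T. Every Ku70 value lay within a narrow band, while MuPOX06509 library S stood above the other MuPOX06509 libraries. The means were 3032 ± 818 FPKM in MuPOX06509 and 654 ± 27.2 FPKM in Ku70 (SD, n = 3 each), a ratio of 4.63. Its expected counts were fractional in at least 1 library, which means that some of its reads also fit another gene, so its level is less certain.

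The next most abundant gene, POX08954, had 330.5, 467 and 498 FPKM in MuPOX06509 libraries F, S and T, against 54.6, 117 and 63.7 FPKM in Ku70 libraries F, S and T. Ku70 library S stood above the other Ku70 libraries and still below every MuPOX06509 library. Its means were 432 ± 89.0 FPKM in MuPOX06509 and 78.5 ± 33.9 FPKM in Ku70 (SD, n = 3 each). It too had fractional counts, at 4128.99 and 2268.99 in Ku70 libraries S and T, each close to a whole number. POX01764 and POX08954 together held 59.2% of the counts of the 66 genes in MuPOX06509 libraries and 66.7% in Ku70 libraries.

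The 66 genes together took 0.375%, 0.482% and 0.387% of all counts in MuPOX06509 libraries F, S and T, against 0.0688%, 0.0851% and 0.0689% in Ku70. Without POX01764 and POX08954 the shares were 0.159%, 0.187% and 0.162% in MuPOX06509 libraries, against 0.0254%, 0.0250% and 0.0237% in Ku70 libraries. Each member was chosen for a higher MuPOX06509 level, so the higher summed share in MuPOX06509 follows from the rule. The share of Ku70 library S stood above those of the other Ku70 libraries only with these 2 genes included.

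Below these lay POX04034, with 230.2, 386 and 253 FPKM in MuPOX06509 libraries, against 27.9, 32.6 and 32.5 FPKM in Ku70 libraries, in the order F, S, T used throughout. Its ratio of 9.34 was above those of the neighbouring genes by abundance. POX04215 had 211, 213 and 161 FPKM in MuPOX06509 libraries, against 36.4, 24.1 and 24.2 FPKM in Ku70 libraries. POX00144 had 143, 150.95 and 194 FPKM in MuPOX06509 libraries, against 34.3, 41.2 and 36.1 FPKM in Ku70 libraries, and with a ratio of 4.37 it was among the smaller differences. In POX00144 MuPOX06509 library T was the highest, whereas in POX04215 it was the lowest and in POX04034 library S was the highest.

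POX07772 combined a high level with a large ratio. It had 65.7, 81.6 and 93.6 FPKM in MuPOX06509 libraries, against 3.17, 7.14 and 5.34 FPKM in Ku70 libraries, a ratio of 15.4 and a fitted log2 fold change of 3.97 ± 0.29 (SE). Its Ku70 values spread more than its MuPOX06509 values on a relative scale, but the groups stayed far apart. POX08694 had 73.7, 121 and 78.7 FPKM in MuPOX06509 libraries, against 16.04, 10.7 and 13.4 FPKM in Ku70 libraries, and POX08696 had 55.9, 69.7 and 51.7 FPKM in MuPOX06509 libraries, against 11.7, 8.68 and 6.43 FPKM in Ku70 libraries; both belong to a pair of close IDs described further on.

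The largest ratios belonged to genes that were nearly silent in the Ku70 strain. POX07550 had 24, 30 and 29 counts in MuPOX06509 libraries, against 1, 0 and 0 counts in Ku70 libraries, a ratio of scaled counts of 84.6, with 14.8 to 3379 as the exact 95% interval from counting error. Its level was low in both strains, at 3.64 ± 0.382 FPKM in MuPOX06509 and 0.0433 ± 0.0751 FPKM in Ku70 (SD, n = 3 each). POX03250 had 21, 34 and 15 counts in MuPOX06509 libraries, against 1, 0 and 1 counts in Ku70 libraries, a ratio of 35.7 with an interval of 9.51 to 300.2. For both genes a handful of Ku70 reads sets the size of the ratio. The MuPOX06509 counts were close to each other in POX07550, whereas in POX03250 library S was well above library T.

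POX03412 had 48, 45 and 34 counts in MuPOX06509 libraries, against 1, 1 and 2 counts in Ku70 libraries, a ratio of 32.3 with an interval of 12.3 to 121. Its neighbour by number, POX03413, was more abundant, with 18.5, 15.7 and 11.1 FPKM in MuPOX06509 libraries, against 0.41, 0.58 and 0.74 FPKM in Ku70 libraries. After POX07550 and POX03250, these adjacent IDs had the largest ratios of mean FPKM of the 66, 33.1 and 26.1.

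POX04369 had 5.01, 8.55 and 6.71 FPKM in MuPOX06509 libraries, against 0.2, 0.4 and 0.2 FPKM in Ku70 libraries, a ratio of 25.3. POX00849 had 16.4, 28.99 and 14.7 FPKM in MuPOX06509 libraries, against 0.89, 0.64 and 0.95 FPKM in Ku70 libraries, a ratio of 24.2. POX06102 had 67.8, 52.7 and 39.2 FPKM in MuPOX06509 libraries, against 2.74, 3.01 and 0.91 FPKM in Ku70 libraries, a ratio of 24.0. These 3 genes had clearly different levels in MuPOX06509 and ratios close to each other. POX04562, the last of the 8 largest, had 4.56, 4.53 and 2.41 FPKM in MuPOX06509 libraries, against 0.14, 0.19 and 0.19 FPKM in Ku70 libraries, a ratio of 22.1.

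Genes near the limits of the rule show how sharply it divides like genes. Just inside the 4-fold limit were POX09234, POX03274 and POX08049, with ratios of 4.20, 4.27 and 4.33. Just outside it were POX04532, POX03501 and POX09565, with ratios of 3.94, 3.92 and 3.90. POX04532 had 382, 399 and 499.8 FPKM in MuPOX06509 libraries, against 63.9, 146 and 116 FPKM in Ku70 libraries, which would have made it the third most abundant member. It is numbered next but one before a member, POX04534, which had 8.86, 6.65 and 4.36 FPKM in MuPOX06509 libraries, against 1.15, 1.75 and 1.53 FPKM in Ku70 libraries.

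For the level limit of 3 FPKM, the members just inside were POX08107, POX04766 and POX00242, with MuPOX06509 means of 3.15, 3.22 and 3.42 FPKM. The genes just outside were POX00452, POX08685 and POX05092, with MuPOX06509 means of 2.84, 2.82 and 2.53 FPKM and Ku70 means of 0.517, 0.373 and 0.510 FPKM. Outside the left-out ranges, 44 genes had a ratio of at least 4 and no overlap but a MuPOX06509 mean under 3 FPKM. The gap between the groups excluded none: 0 genes outside the left-out ranges passed level and ratio with overlapping groups. The smallest gaps between lowest MuPOX06509 and highest Ku70 value were 0.65 FPKM in POX09556, 0.96 FPKM in POX09557 and 1.14 FPKM in POX00242.

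The remaining 30 members fall between these extremes. In 8 of them the MuPOX06509 mean was 3.50 to 4.90 FPKM and the Ku70 mean 0.307 to 1.08 FPKM, with ratios of 4.34 to 11.4. In 8 others the MuPOX06509 mean was 5.13 to 8.93 FPKM and the Ku70 mean 0.330 to 1.48 FPKM, with ratios of 4.49 to 16.3. The last 14 had MuPOX06509 means of 10.03 to 51.6 FPKM and Ku70 means of 1.78 to 9.04 FPKM, with ratios of 4.71 to 20.7. The median ratio was 5.76, 6.87 and 5.65 in these 3 classes. These 30 genes are what is left after several kinds of member were set apart. Those were the largest ratios, the highest levels, the members just inside each limit, the chain members and the most variable members. The medians of the 30 therefore do not describe all 66.

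Most of the 66 genes stood alone in the numbering. No other member lay within 5 ID numbers for 44 of them, and 14 had a member at the adjacent number. The median gap between successive members was 78 numbers, and the largest ran from POX00242 to POX00837, 595 numbers. Members were found in every block of 1000 numbers, from 2 between POX06000 and POX06999 to 12 between POX04000 and POX04999. All ID numbers from the first to the last are present in the tables. The labels do not say whether the numbering runs along the chromosomes, so closeness below means closeness of numbers.

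The left-out ranges held longer runs, so the isolation of the members is in part set by the rule. Of the 66 genes that passed the same values inside the ranges, 43 had an adjacent gene that passed as well, and 52 lay in chains, the longest of 9 genes. Their median ratio of mean FPKM was 6.81, and their highest was 278. Among the scattered genes 4 lay within 5 numbers of a left-out range: POX05832, POX05887 and POX05888 around the range from POX05835 to POX05885, and POX09446 before the range from POX09450.

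**Figure D2:**
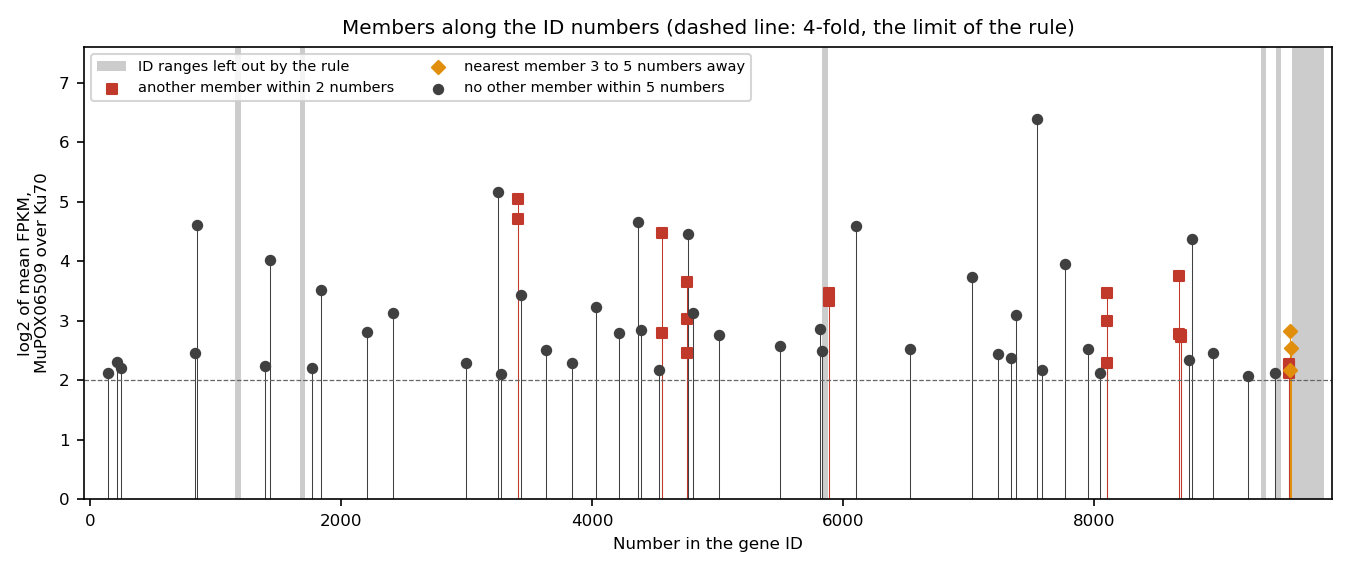
The horizontal axis is the number in the gene ID and the vertical axis the log2 of mean FPKM in MuPOX06509 over Ku70, with grey bands for the ID ranges that the rule left out. The 44 isolated genes (dark circles) cover most of the numbering and reach both ends of the ratio scale, while 19 genes (red squares) have another member within 2 numbers and 3 (orange diamonds) have one 3 to 5 numbers away; the dashed line is the 4-fold limit.

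Members whose numbers differed by at most 2 formed 8 chains with 19 members, 5 chains of 2 and 3 chains of 3. The median ratio of mean FPKM was 8 among the 19 chained members and 5.79 among the 47 others. Both sets span a wide range, 4.35 to 33.1 and 4.20 to 84.0, and the split was not tested.

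POX04756, POX04757 and POX04758 were the most abundant chain of 3. POX04756 had 52.5, 29.9 and 32.8 FPKM in MuPOX06509 libraries, against 5.2, 3.04 and 5.96 FPKM in Ku70 libraries. POX04757 had 51.95, 34.5 and 36.2 FPKM in MuPOX06509 libraries, against 5.71, 11.4 and 5.25 FPKM in Ku70 libraries, and POX04758 had 10.02, 9.45 and 10.1 FPKM in MuPOX06509 libraries, against 0.41, 0.56 and 1.38 FPKM in Ku70 libraries. MuPOX06509 library F was the highest for the first and second of them, and for the third the MuPOX06509 libraries were nearly level. Their fitted log2 fold changes were 3.06 ± 0.28, 2.47 ± 0.33 and 3.69 ± 0.34 (SE). None of the 8 other tested genes within 5 numbers was called in either direction, with log2 fold changes of -0.38 to 0.01.

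POX08107, POX08108 and POX08109 were a chain of similar kind with unequal levels. POX08107 had 2.72, 4.08 and 2.64 FPKM in MuPOX06509 libraries, against 0.65, 0.38 and 0.15 FPKM in Ku70 libraries. POX08108 had 33.9, 40.6 and 24.9 FPKM in MuPOX06509 libraries, against 4.02, 3.69 and 1.3 FPKM in Ku70 libraries. POX08109 had 15.7, 13.7 and 9.99 FPKM in MuPOX06509 libraries, against 4.69, 1.48 and 1.84 FPKM in Ku70 libraries, and its Ku70 library F was well above the other Ku70 libraries. POX08107 had the longest implied effective length of the 66 genes, 3518 bases. The next lower number, POX08106, was also called higher, but only slightly, at 0.58 ± 0.16 (SE) on the log2 scale and an edgeR adjusted p of 0.043.

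POX08683 and POX08684 lay inside 5 consecutive IDs that were all called higher, POX08681 to POX08685. POX08683 had 16.9, 17.4 and 11.2 FPKM in MuPOX06509 libraries, against 2.57, 2.47 and 1.63 FPKM in Ku70 libraries. POX08684 had 8.16, 7.18 and 6.99 FPKM in MuPOX06509 libraries, against 0.59, 0.71 and 0.35 FPKM in Ku70 libraries. The 3 other genes of the run stayed under the level limit of the rule, with MuPOX06509 means of 0.620, 0.797 and 2.82 FPKM and Ku70 means of 0.0800, 0.200 and 0.373 FPKM for POX08681, POX08682 and POX08685. POX08685 was higher by 2.93 ± 0.34 (SE) on the log2 scale, with an edgeR adjusted p of 0.000272. POX08682, with a ratio of 3.98, was also just under the 4-fold limit. On the next higher side POX08686 had a log2 fold change of -0.13 ± 0.26 (SE) and was not called.

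POX08694 and POX08696 enclosed a gene that was not called. POX08695, between them, averaged 1.41 ± 0.231 FPKM in MuPOX06509 and 1.40 ± 0.364 FPKM in Ku70 (SD, n = 3 each), a log2 fold change of 0.05 ± 0.27 (SE; edgeR adjusted p 0.91), where the flanking members had 2.80 ± 0.23 and 2.75 ± 0.25. The gene before the pair, POX08693, was called lower, at -1.24 ± 0.25 (SE) on the log2 scale with an edgeR adjusted p of 0.00774. In POX04560 and POX04562 the gene between was instead part of the change. POX04561 averaged 3.13 ± 0.653 FPKM in MuPOX06509 and 1.09 ± 0.576 FPKM in Ku70 (SD, n = 3 each), a fitted difference of 1.55 ± 0.38 (SE) on the log2 scale, with an edgeR adjusted p of 0.0212. The members on its sides had 2.80 ± 0.33 for POX04560 and 4.46 ± 0.40 for POX04562.

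POX03412 and POX03413 had log2 fold changes of 4.93 ± 0.43 and 4.72 ± 0.33 (SE), far above those of their neighbours. POX03411 before them was called higher with 0.98 ± 0.24 (SE; edgeR adjusted p 0.0218), and POX03414 after them had 1.00 ± 0.31 (SE; edgeR adjusted p 0.061) and was not called. POX05887 and POX05888 began 2 numbers after a left-out range, and POX05886 between was not called. POX05887 had 9.42, 9.77 and 7.79 FPKM in MuPOX06509 libraries, against 1.13, 0.67 and 0.63 FPKM in Ku70 libraries, and POX05888 had 5.47, 7.76 and 4.71 FPKM in MuPOX06509 libraries, against 0.78, 0.74 and 0.26 FPKM in Ku70 libraries. POX05886 had a log2 fold change of -0.26 ± 0.16 (SE; edgeR adjusted p 0.305).

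POX09554, POX09556 and POX09557 were a chain of ratios all under 5, 4.35, 4.70 and 4.85. POX09554 had 13.8, 8.77 and 5.77 FPKM in MuPOX06509 libraries, against 3.25, 1.69 and 1.58 FPKM in Ku70 libraries. POX09556 had 4.96, 4.24 and 2.03 FPKM in MuPOX06509 libraries, against 1.38, 0.38 and 0.63 FPKM in Ku70 libraries, and POX09557 had 8.26, 5.25 and 2.36 FPKM in MuPOX06509 libraries, against 1.4, 0.47 and 1.4 FPKM in Ku70 libraries. In all 3, MuPOX06509 library F was the highest and library T, the lowest, was nearest to the Ku70 values. The call of POX09556 was lost without Ku70 library T. POX09563, POX09566 and POX09570 follow within the same stretch. POX09563 had 28.5, 43.8 and 39.5 FPKM in MuPOX06509 libraries, against 4.65, 5.57 and 5.59 FPKM in Ku70 libraries, and MuPOX06509 library F was there the lowest. POX09566 had 11.3, 5.49 and 5.83 FPKM in MuPOX06509 libraries, against 1.83, 2.13 and 1.05 FPKM in Ku70 libraries. POX09570 had 7.29, 4.15 and 3.26 FPKM in MuPOX06509 libraries, against 1.23, 0.52 and 0.79 FPKM in Ku70 libraries. The stretch from POX09491 to POX09579 lies between left-out ranges and held 6 members. Of its 67 tested genes 10 were called higher, 5 of these being members, and 0 lower. Over all tested genes 5.33% were called higher and 7.27% lower. The members were chosen by the same contrast, so nothing is read from their calls.

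**Figure D3:**
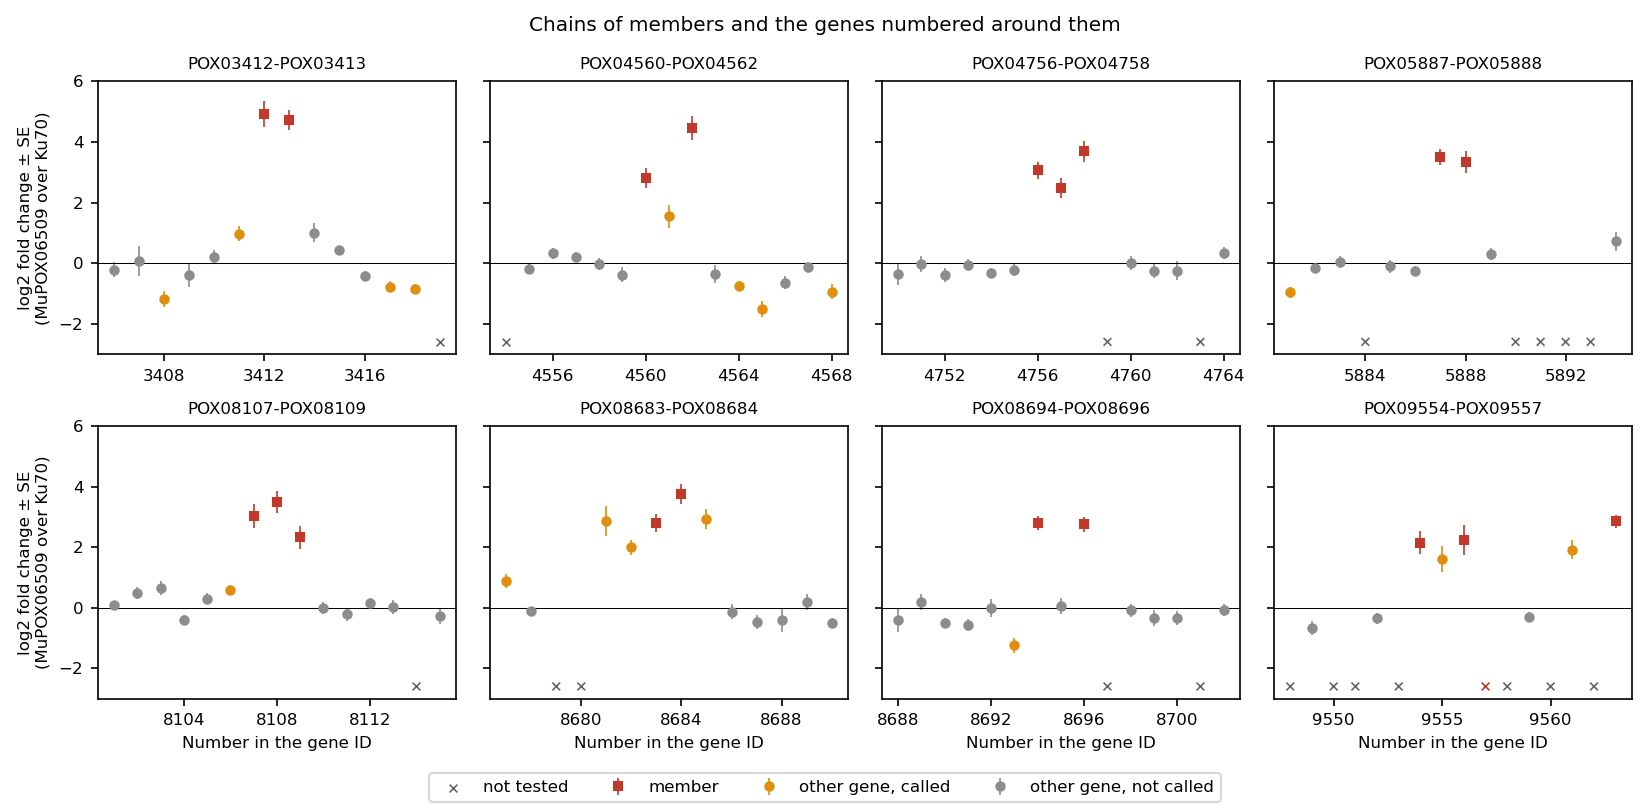
Each panel shows 1 chain with the 6 ID numbers on either side; the vertical axis is the fitted log2 fold change, MuPOX06509 over Ku70, with its SE, red squares are members, orange circles are other genes called higher or lower, grey circles are genes not called, and crosses at the foot are genes not tested. The genes around POX04756 to POX04758 lie near 0, POX08683 and POX08684 sit within 5 called genes, and POX08695 lies near 0 between POX08694 and POX08696.

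Genes that were numbered next to a member but did not meet the rule were called higher more often than tested genes as a whole. Of 174 tested non-members within 2 numbers of a member, outside the left-out ranges, 27 were called higher (15.5%) and 17 lower (9.77%). Over all tested genes the shares were 5.33% higher and 7.27% lower, and over the 7904 tested non-members outside the left-out ranges 3.44% and 7.26%. At the adjacent number 18 of 81 were called higher (22.2%), at 2 numbers away 16 of 105 (15.2%), at 3 away 7 of 97 (7.22%) and at 4 away 3 of 103 (2.91%). From 4 to 10 numbers away the share stayed between 2.91% and 6.19%. A gene near several members was counted at each of its distances, so these classes overlap, whereas the 174 hold each gene once. The median log2 fold change of the 174 was only 0.03, so most neighbours were at the level of the table and a minority moved. This comparison was given no test. The share around other genes called higher in MuPOX06509 is not given here, so the excess is not read as particular to the members.

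The same held around the 44 isolated members. Of 140 tested genes within 2 numbers of these, 17 were called higher (12.1%) and 15 lower (10.7%). At the adjacent number 10 of 63 were higher (15.9%) and at 2 numbers away 7 of 77 (9.09%), with no gene in both classes. Within 5 numbers, 23 of the 44 isolated members had a non-member called higher and 21 did not; 29.2% of all tested genes had a gene called higher within 5 numbers. For 14 of the 44 no gene within 5 numbers was called in either direction. The matching share over all tested genes is not given here, and 12.6% of those genes were called in either direction. Leaving out Ku70 library S raised the calls near isolated members to 26 of 142 (18.3%), with 12.5% of all tested genes called higher. Leaving out Ku70 library F gave 14 of 141 (9.93%), against 3.45% of all tested genes. Over all members, the share of neighbours called higher was 11.3% to 20.5% in the 12 alternatives, above the 3.45% to 12.5% of all tested genes in each of them. The 3.44% of non-members outside the left-out ranges became 10.7% when Ku70 library S was left out, 4.55% when MuPOX06509 library F was, and 1.57% to 2.11% when any other single library was.

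Most of the 27 higher neighbours changed less than the members, as the limits of the rule entail. Their log2 fold changes had a median of 1.61 and a span of 0.54 to 2.93, and 6 of them had a ratio of at least 4. In 9 the MuPOX06509 mean was under 3 FPKM, and in 8 both strains averaged at least 10 FPKM. POX00142, 2 numbers before POX00144, averaged 113 ± 21.9 FPKM in MuPOX06509 and 31.8 ± 2.57 FPKM in Ku70 (SD, n = 3 each), with an edgeR adjusted p of 0.0001. POX02208, next to POX02209, averaged 23.9 ± 2.48 FPKM in MuPOX06509 and 6.51 ± 2.73 FPKM in Ku70 (SD, n = 3 each), with an edgeR adjusted p of 0.0016. POX09444 and POX09448 on either side of POX09446 had log2 fold changes of 2.84 ± 0.41 and 2.25 ± 0.36 (SE), with edgeR adjusted p of 0.00122 and 0.00223. These neighbours were picked for mention after their values were seen. Fractional counts, a sign of reads shared between genes, were present in 1 of the 27. The sources used here give no strand setting, and the part of reads from overlapping or antisense neighbours was not tested.

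Some members were numbered beside genes that fell. POX04034, with a log2 fold change of 3.25 ± 0.22 (SE), had POX04033 before it and POX04035 and POX04036 after it, all called lower. POX04033 averaged 13.6 ± 1.31 FPKM in MuPOX06509 and 36.5 ± 15.7 FPKM in Ku70 (SD, n = 3 each; edgeR adjusted p 0.00691). POX04035 averaged 321 ± 52.1 FPKM in MuPOX06509 and 645 ± 95.4 FPKM in Ku70 (SD, n = 3 each; edgeR adjusted p 0.00524), and POX04036 averaged 1.91 ± 0.340 FPKM in MuPOX06509 and 17.4 ± 7.47 FPKM in Ku70 (SD, n = 3 each; edgeR adjusted p 0.000166). The log2 fold change of POX04036 was -3.13 ± 0.34 (SE), close in size to that of POX04034 and of opposite sign, at 2 numbers apart. POX01764, the most abundant member, had POX01763 lower beside it, with a log2 fold change of -0.85 ± 0.17 (SE; edgeR adjusted p 0.00689), and POX01762 higher, with 1.39 ± 0.23 (SE; edgeR adjusted p 0.0027). In all, 15 members had a gene called lower within 2 numbers. Over all tested genes 7.27% were called lower. The share of all tested genes with such a neighbour is not given here, so the 15 are not read as a trait of the members. These examples were likewise chosen after their values were seen. The count of lower neighbours was 11 without MuPOX06509 library T and 10 without Ku70 library T, against 17 with all libraries.

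**Figure D4:**
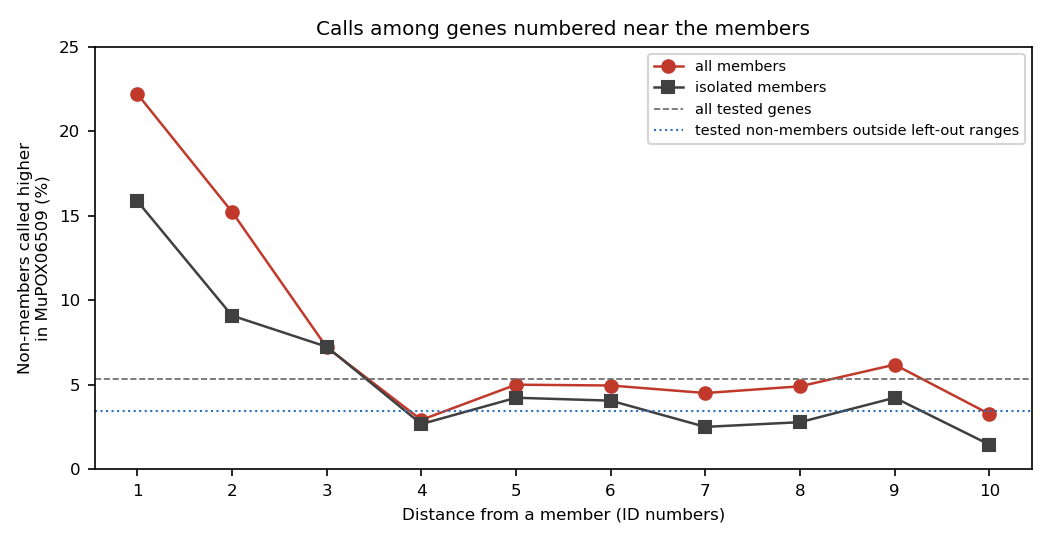
The horizontal axis is the distance in ID numbers from a member and the vertical axis the percentage of tested non-members at that distance called higher in MuPOX06509, around all 66 members (red circles) and around the 44 isolated members (dark squares); the dashed line is the share over all tested genes and the dotted line the share over tested non-members outside the left-out ranges. The share is 22.2% at distance 1 around all members and lies near the lines from distance 4 on. A gene near several members is counted at each of its distances.

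The order of the libraries inside a strain was not used by the rule, apart from the gap it demands between the lowest MuPOX06509 and the highest Ku70 value. MuPOX06509 library T was the lowest of its group for 41 of the 66 genes (62.1%) and the highest for 7 (10.6%). Over all tested genes library T was the lowest for 33.2% and the highest for 30.3%. Library S was the highest for 31 of the 66 (47.0%), where it was the highest for 27.6% of all tested genes, and library F was the highest for 28 (42.4%), against 42.0% of all tested genes. Scaling counts by library total in place of FPKM left library T the lowest for 42 genes. All these genes were read in the same 3 libraries, so the shares describe those libraries and have no replicate of their own.

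The genes highest in library F and lowest in T (20) and those highest in S and lowest in T (21) made up those 41. In the chains, members shared the lowest MuPOX06509 library in 7 of 8 and the highest in 5 of 8. With library T the lowest for 41 of all 66 members, this sharing is not read as a trait of the chains. The median coefficient of variation over the MuPOX06509 libraries was 24.9% among the members, where it was 14% among all tested genes. The tested genes as a whole are more abundant, and the part of abundance in these shares and variations was not tested. In the Ku70 libraries the median variation was 33.4% among the members and 15.7% among all tested genes. The 3 members of largest variation in MuPOX06509 were POX09557, POX08049 and POX09566, at 55.8%, 47.8% and 43.3%. POX08049 had 5.99, 3.15 and 2.5 FPKM in MuPOX06509 libraries, against 0.82, 1.25 and 0.62 FPKM in Ku70 libraries; its MuPOX06509 library F stood above the others, and its call was lost without Ku70 library F or T.

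In the Ku70 strain the libraries were ordered otherwise. Library F was the highest for 26 of the 66 genes (39.4%) and library T the lowest for 25 (37.9%). Over all tested genes library F was the highest for 30.4% and library T the lowest for 18.6%, with library S the lowest for 50%; among the members S was the lowest for 19 (28.8%).

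**Figure D5:**
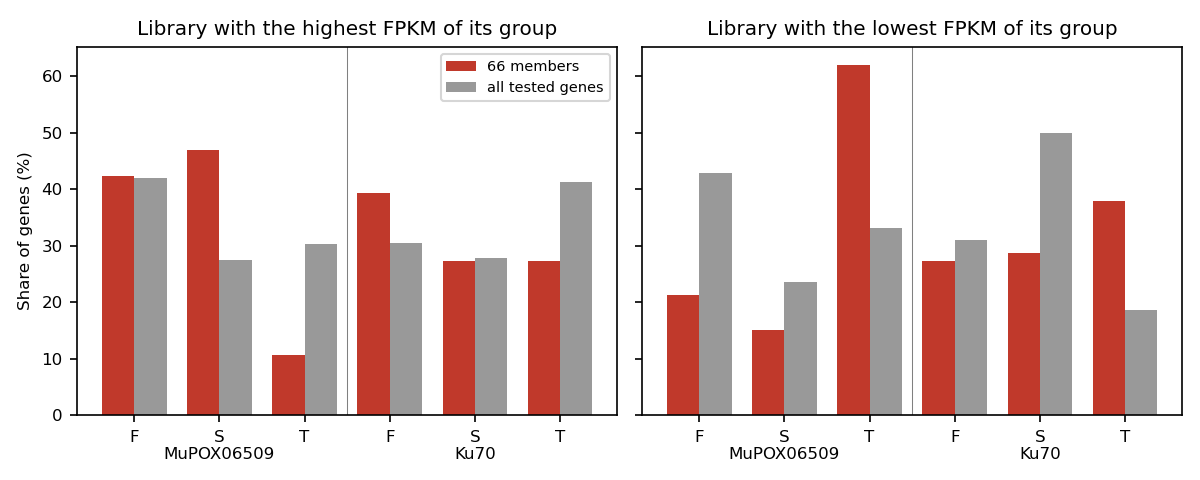
Bars give the percentage of genes for which each library had the highest (left panel) or the lowest (right panel) FPKM of its own group, for the 66 members in red and all 8336 tested genes in grey, with MuPOX06509 libraries left of Ku70 libraries. MuPOX06509 library T is the lowest for 62.1% of the members and for 33.2% of all tested genes.

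The members were somewhat shorter by median than the tested genes. The filter on low counts shaped the tested genes only: the 66 include POX00242 and POX09557, which it left out, at 59.0 and 141 bases. Their median implied effective length was 1062 bases, with quartiles of 533 and 1597, where the median over all tested genes was 1288 bases, with quartiles of 786 and 1937. These lengths assume that FPKM was scaled to the total expected count. A fractional expected count in any library was found for 3 of the 66 (4.55%) and for 4.83% of all tested genes, so the share was similar. The same values turned round, with Ku70 at least 3 FPKM and at least 4 times MuPOX06509 and no overlap, picked 18 genes other than POX06509 outside the left-out ranges. Their largest ratio, Ku70 over MuPOX06509, was 12.2, and their median was 5.99.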

How the data were processed

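Per the file headers, each gene of each library has a deposited expected count, which divides reads that fit several genes, and a deposited FPKM. Of tools, BWA 0.7.10-r789, RSEM 1.2.12, DESeq2 and Bowtie2 2.1.0 appear without roles in the submitters' processing notes. No source used here gives the genome build, the annotation or a strand setting. The member rule was applied to FPKM as deposited. Expected counts were rounded and fitted over all 6 libraries with edgeR 4.0.16 in R 4.3.3 (TMM, filterByExpr with a minimum count of 10, quasi-likelihood F test, strain as the only term), with Benjamini-Hochberg adjustment over 8336 genes, a threshold of 0.05, and SE taken as the log2 fold change over the square root of F. The step was tested on simulated data, with counts drawn independently in each library. Such data cannot show how the step responds to a library that differs as a whole. Since separate cultures are not stated, p-values cover only the spread among the libraries, possibly technical. DESeq2 1.42.0, limma 3.58.1 on log2(FPKM + 1) and on log2(FPKM + 0.1), other scaling and filtering, a replicate block and leaving out each library were the alternatives; Python 3.11.15 did the rest. Intervals on count ratios are exact 95% intervals for counting error. A library's floor of 3 counts was 0.197 to 0.205 CPM. Genes were named by rule: the 8 highest MuPOX06509 levels, the 8 largest ratios, all chain members (numbers at most 2 apart), the 3 genes on either side of each limit, the 3 members of largest variation in MuPOX06509, the 2 of highest Ku70 level and POX06509; others were named after their values were seen. The members and lists were chosen with earlier results of these data known. Grouping by gene function was planned for the case that a table named the products, and was not done.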

Additional observations from a re-analysis of the deposited data

How the results depend on the processing

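The 34 named members with a fitted value and POX06509 kept their direction in all 12 alternatives, and 417 of 420 values kept their side of the threshold; the other 3 were POX08049 without Ku70 library F or T and POX09556 without Ku70 library T. The number of members was 36 with a limit of 6-fold and 96 with a limit of 3-fold. It was 49 with a level limit of 5 FPKM and 79 with a level limit of 1 FPKM. It was 59 to 73 without 1 library, of which 56 to 65 were among the 66. The median log2 fold change of the members, 2.80, was 2.11 with limma and a pseudocount of 1, which lowers the fold of low genes, and 2.61 to 2.91 without 1 library. Without 1 library 576 to 2175 genes were called over the whole table, 290 to 1049 higher and 275 to 1126 lower. Ku70 library S gave the highest of each when left out and Ku70 library F or T the lowest; without MuPOX06509 library T 342 were lower. Leaving out 1 library gave 10 to 25 lower neighbours of all members and 14 to 26 higher neighbours of isolated members. Of neighbours within 5 numbers, in place of 2, 8.81% were called higher. Whether the letters pair the libraries was not settled by these values. Same-letter deviations correlated at 0.387 (F), 0.0640 (S) and 0.0636 (T), and 1 of 3 MuPOX06509 libraries correlated best with its own letter. A replicate block by letter gave 1972 calls in edgeR (898 higher, 1074 lower) and 30 lower neighbours, with 8.96% of non-members outside the left-out ranges called higher (2.16% in limma with a pseudocount of 0.1); the cause was not tested. Counting error limits the ratios of the 3 members with at most 3 Ku70 counts.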
